A study of Mus musculus with 32 samples.

Results

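Small nucleolar RNA host genes are noncoding genes whose introns hold small nucleolar RNAs (snoRNAs). The 10 mouse members Gas5, Snhg1, Snhg3, Snhg5, Snhg6, Snhg8, Snhg12, Snhg15, Snhg17 and Snhg20 were chosen by name, and their interactions are those whose RNA gene carries the member's Ensembl identifier. They gave 5427 of the 25231081 interactions listed over 15 RADICL-seq libraries. RADICL-seq joins RNA to nearby DNA in crosslinked nuclei through a bridge adapter, so each interaction has an RNA tag and a DNA tag. R08 mouse embryonic stem cells (mESC) and Oli-neu cells, a line of oligodendrocyte progenitors (mOPC), were used, and the library was the replicate. In mESC 1FA (3 libraries) and mOPC 1FA (3 libraries) cells were fixed with 1% formaldehyde. In mESC 2FA (3 libraries) 2% formaldehyde was used. In mESC ActD4 (2 libraries) the cells received 5 µg/ml actinomycin D for 4 h before fixation with 1% formaldehyde. In mESC NPM (2 libraries) and mOPC NPM (2 libraries), the groups for interactions that are not protein-mediated, cells were fixed with 1% formaldehyde, and protein digestion and crosslink reversal preceded the ligation of RNA to the adapter. Each cell type is represented by 1 line, and all groups of a cell type share it.

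A host gene is transcribed and spliced like a messenger RNA. The snoRNA is trimmed out of the removed intron, while the spliced exons leave as a transcript that encodes no known protein and is often short-lived. SnoRNAs with boxes C and D guide methylation and those with boxes H and ACA guide pseudouridylation of ribosomal RNA in the nucleolus, and the related scaRNAs act on spliceosomal RNAs in Cajal bodies. Actinomycin D inserts into DNA and blocks elongation, most readily at the ribosomal RNA genes.

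The annotation places 34 snoRNA or scaRNA genes inside the 10 members on the same strand, of which 25 had at least 1 interaction of their own and gave 6379 interactions. Among the rest are second entries of Snord80 and Snora16a. They lie inside the captured entries of the same name, so their lack of interactions need not mean a lack of capture. The sequences below are those of the embedded RNAs with the most interactions, up to 2 per host by the mean over the 15 libraries. Gm26003 of Snhg17 and Gm26083 of Snhg20, with means of 1.8 and 1.4, were left out. The sequences were read from the genome of build GRCm38 (mm10) at the annotated coordinates. Capitals mark TGATGA in the first 20 bases and CTGA in the last 15 bases (the letters of boxes C and D) where both stood. Where they did not, capitals mark ACA in the last 6 bases of genes over 110 bases.
Snord80 (Gas5, chr1:161037601-161037681, plus strand): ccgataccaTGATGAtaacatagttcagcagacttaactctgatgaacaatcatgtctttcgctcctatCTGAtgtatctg
Gm22357 (Gas5, chr1:161036057-161036139, plus strand): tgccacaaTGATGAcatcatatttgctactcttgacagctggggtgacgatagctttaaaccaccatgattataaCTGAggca
Gm23246 (Snhg1, chr19:8725594-8725660, plus strand): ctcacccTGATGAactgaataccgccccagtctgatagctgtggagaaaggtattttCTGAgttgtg
Snord22 (Snhg1, chr19:8725866-8725991, plus strand): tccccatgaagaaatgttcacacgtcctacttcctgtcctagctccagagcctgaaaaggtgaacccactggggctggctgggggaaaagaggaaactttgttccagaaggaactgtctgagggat
Snord87 (Snhg6, chr1:9942463-9942549, minus strand): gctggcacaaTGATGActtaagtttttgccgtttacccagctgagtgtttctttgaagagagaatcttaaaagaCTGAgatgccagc
Snora24 (Snhg8, chr3:123507937-123508066, minus strand): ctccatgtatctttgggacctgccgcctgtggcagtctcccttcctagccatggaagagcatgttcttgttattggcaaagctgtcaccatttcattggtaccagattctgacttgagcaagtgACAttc
Snord99 (Snhg12, chr4:132310691-132310764, plus strand): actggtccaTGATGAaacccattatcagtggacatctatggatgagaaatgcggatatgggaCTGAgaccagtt
Snora44 (Snhg12, chr4:132309941-132310069, plus strand): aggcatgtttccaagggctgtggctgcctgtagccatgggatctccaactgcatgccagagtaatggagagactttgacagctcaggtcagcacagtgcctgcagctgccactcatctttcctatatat
Gm24411 (Snhg17, chr2:158356424-158356554, minus strand): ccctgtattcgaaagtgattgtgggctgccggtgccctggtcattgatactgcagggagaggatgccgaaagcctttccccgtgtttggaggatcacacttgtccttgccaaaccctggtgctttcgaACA
Both box motifs were searched on the gene's own strand. They stood in 5 of these 9 sequences, and ACA stood in Snora24 and Gm24411. Neither form was found in Snord22 and Snora44, which are over 110 bases and were searched for the pair of box motifs and for ACA. Of the 506 annotated mouse snoRNA genes of at most 110 bases, 296 (58.5%) held both box motifs, and of the 1001 longer ones, 620 (61.9%) held the ACA.

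Interactions listed per library numbered 2035499 to 2832717 in mESC 1FA and 2FA, 1998951 to 2210765 in mOPC 1FA, 1190366 and 1272653 in mOPC NPM, 434610 and 608994 in mESC NPM, and 251802 and 418781 in mESC ActD4. Only pairs of a transcript and a 25-kb DNA bin with a deposited adjusted p under 0.05 are listed, so these totals are not the sequencing depth, and a member listed at 0 may still have been captured. Of 10 mESC markers fixed as a list, 9 were listed in every mESC 1FA library (summed 3553 to 3793 CPM, the interactions of a gene scaled to 1000000 listed in the library) and 1 in every mOPC 1FA library (47.4 to 58.0 CPM). Of 9 mOPC markers, 8 were listed in every mOPC 1FA library (4100 to 4318 CPM) and 5 in every mESC 1FA library (11.6 to 43.4 CPM). In mESC Dppa5a, and in mOPC 1FA Nkx2-2, stood at 0.

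The members gave 208, 276 and 280 CPM in the mESC 1FA libraries. Snhg17 led with 248, 262 and 304 interactions (102.5 ± 8.29 CPM, SD, n = 3) and Snhg3 followed with 90, 163 and 176. Snhg15 had 62, 67 and 75 interactions, Gas5 had 62, 59 and 98, and Snhg1 had 52, 66 and 76. These 5 genes held most of the host signal. Snhg12 came with 15, 28 and 30 interactions, Snhg6 with 11, 8 and 17, Snhg20 with 8, 11 and 4, Snhg5 with 6, 3 and 12, and Snhg8, the shortest of the 10, with 2, 6 and 1. Since the genes differ in length from 853 to 7881 bases, their levels were also expressed as CPM per kb of gene span. On that scale Snhg17 reached 13.01 ± 1.05, Snhg3 9.56 ± 3.15, Snhg1 8.24 ± 1.45, Snhg15 8.11 ± 0.694 and Gas5 6.64 ± 1.53 (SD, n = 3). The lowest Snhg17 library and the highest Snhg3 library both stood at 11.8, and the ranges of Snhg3, Snhg1, Snhg15 and Gas5 overlapped. Snhg12 followed with 3.84 ± 1.31, Snhg6 with 2.07 ± 0.646, Snhg8 with 1.39 ± 1.31, Snhg5 with 1.37 ± 0.814 and Snhg20 with 1.01 ± 0.525, and neighbours among these 5 overlapped between libraries, while all lay below the lowest Gas5 library.

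**Figure D1:**
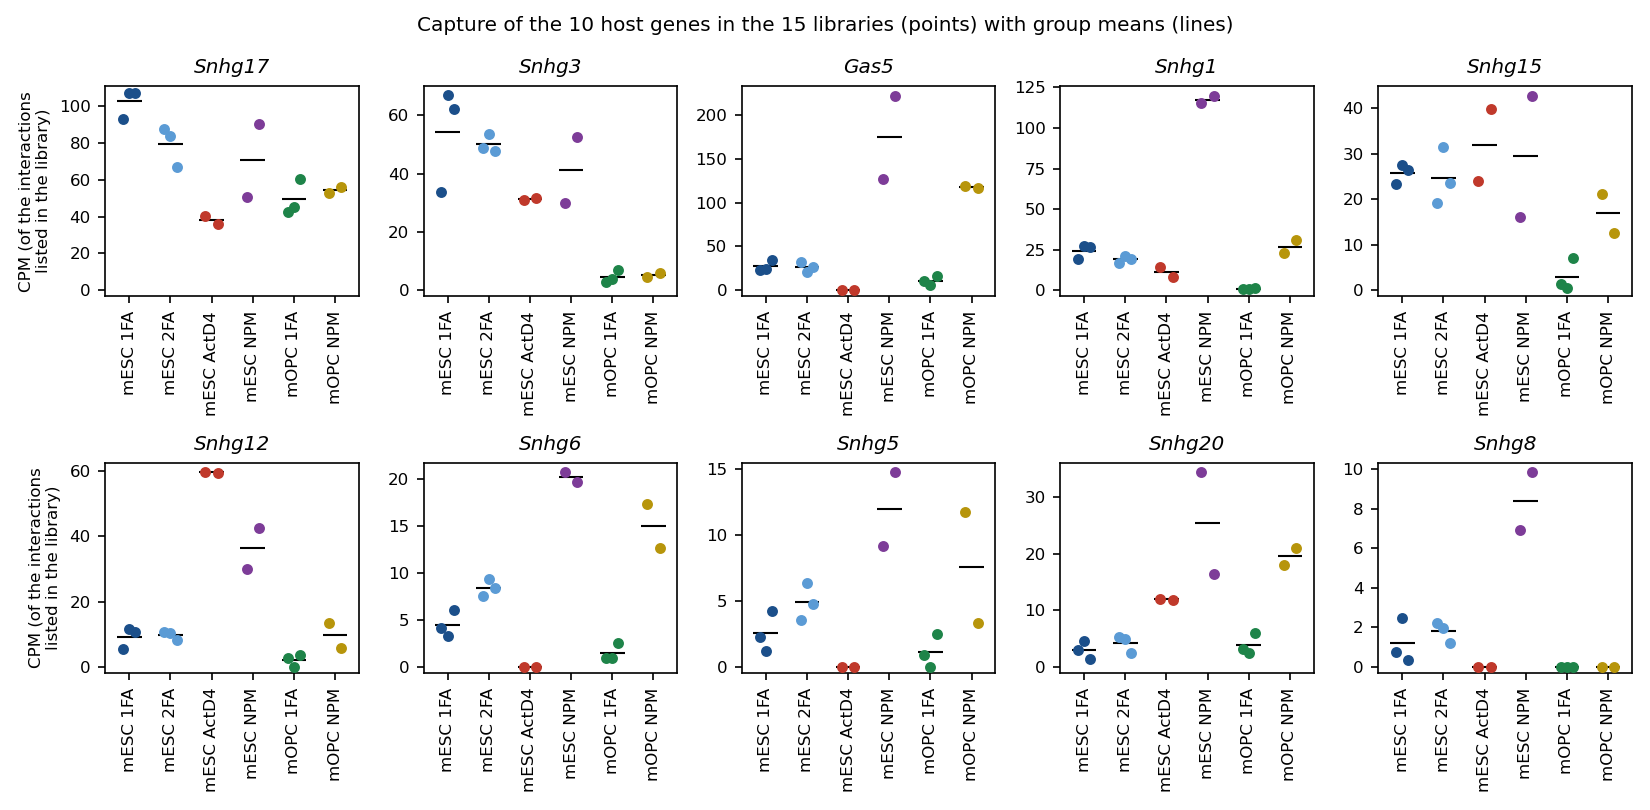
CPM (vertical axis, interactions scaled to 1000000 listed in the library, its own scale in each panel) for each of the 10 host genes in the 6 groups. Each point is 1 library and each line a group mean. Gas5, Snhg5, Snhg6 and Snhg8 lie at 0 in both actinomycin D libraries, while Snhg12 lies at 59.6 and 59.7 there and between 5.62 and 11.5 in mESC 1FA.

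The RNA tags of the members came largely from exons. The exon share of their interactions was 71.8%, 67.6% and 68.5% in the mESC 1FA libraries (69.3% ± 2.19, SD, n = 3), against 8.66% to 9.95% for all transcripts and 3.48% to 3.59% for 259 protein-coding genes that hold a snoRNA on the same strand. Each library of the members thus lay far above both sets. The lengths of exons and introns were not taken into account, and tags inside an embedded snoRNA are listed under the snoRNA. The members differed among themselves. All tags of Gas5 (219), Snhg1 (194), Snhg20 (23) and Snhg8 (9) in mESC 1FA were exonic, as were 20 of 21 for Snhg5 and 716 of 814 (88.0%) for Snhg17. Snhg12 had 49 of 73 (67.1%), Snhg15 had 110 of 204 (53.9%) and Snhg6 had 13 of 36 (36.1%). Snhg3 stood apart with 44 of 429 (10.3%), close to the share of all transcripts. Snhg3 overlaps Rcc1, the exchange factor of the Ran GTPase, on the same strand, so its intronic tags cannot be assigned to Snhg3 with certainty. The other overlaps of members with longer genes, Gas5 with Zbtb37, Snhg6 with Mcmdc2 and Snhg3 with Gm17300, are on opposite strands, and the tags were assigned by strand.

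The exon share of the members was 61.8% and 63.8% in the mESC ActD4 libraries, 63.9% to 70.5% in mESC 2FA, 80.8% to 86.2% in mOPC 1FA, 87.4% and 91.5% in mOPC NPM, and 85.7% and 89.0% in mESC NPM. These summed shares also depend on the mix of genes. The mostly intronic Snhg3 gave 429 of 2022 host interactions in mESC 1FA and 28 of 485 in mOPC 1FA. Snhg17, the 1 member tested between the cell types, had 89.0% in mOPC 1FA against 87.9% in mESC 1FA (exact permutation p = 0.7). In single genes no exact permutation test over libraries (two-sided) gave a difference after Benjamini-Hochberg adjustment. Among the 5 members tested between crosslinking conditions, Snhg15 showed the widest gap, from 53.9% ± 3.70 in mESC 1FA to 41.3% ± 7.94 in mESC 2FA (n = 3 and 3). Its exact p was 0.1, the smallest that 3 against 3 libraries allow, and 0.5 after adjustment over the 5 members tested. That test leaves out the pairing of replicate numbers. Within the pairs 1, 2 and 3 the Snhg15 share went from 51.6% to 46.5%, 58.2% to 45.3% and 52.0% to 32.2%. Snhg17 had 92.3% ± 4.50 in mESC NPM against 87.9% ± 2.10 in mESC 1FA, and 84.3% ± 5.28 in mOPC NPM against 89.0% ± 3.43 in mOPC 1FA (exact p = 0.4 each, n = 2 and 3), so its exon share differed in opposite directions in the cell types and within the spread of each.

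Each RNA tag carries 1 gene in the files, and a tag with its centre inside an embedded snoRNA is listed under the snoRNA. Host tags inside an embedded snoRNA numbered 0 for that reason, and tag positions describe the rest of the gene alone. The most frequent tag position of Gas5 (17 of 219 interactions in mESC 1FA) lay in an exon 4019 bases from the 5′ end of the gene span, 58 bases from the snoRNA Gm25789. That of Snhg12 (6 of 73) was exonic and 93 bases from Snora44, and that of Snhg1 (9 of 194) was exonic and 141 bases from Gm25855. In Snhg17, which had 535 distinct tag positions, the top position held only 12 of 814 interactions, and in Snhg3 the top position (13 of 429) was intronic and 2930 bases from Snora73b. In Snhg15 tags collected towards the 5′ end, where the top position (9 of 204) was intronic and 263 bases into the gene.

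**Figure D2:**
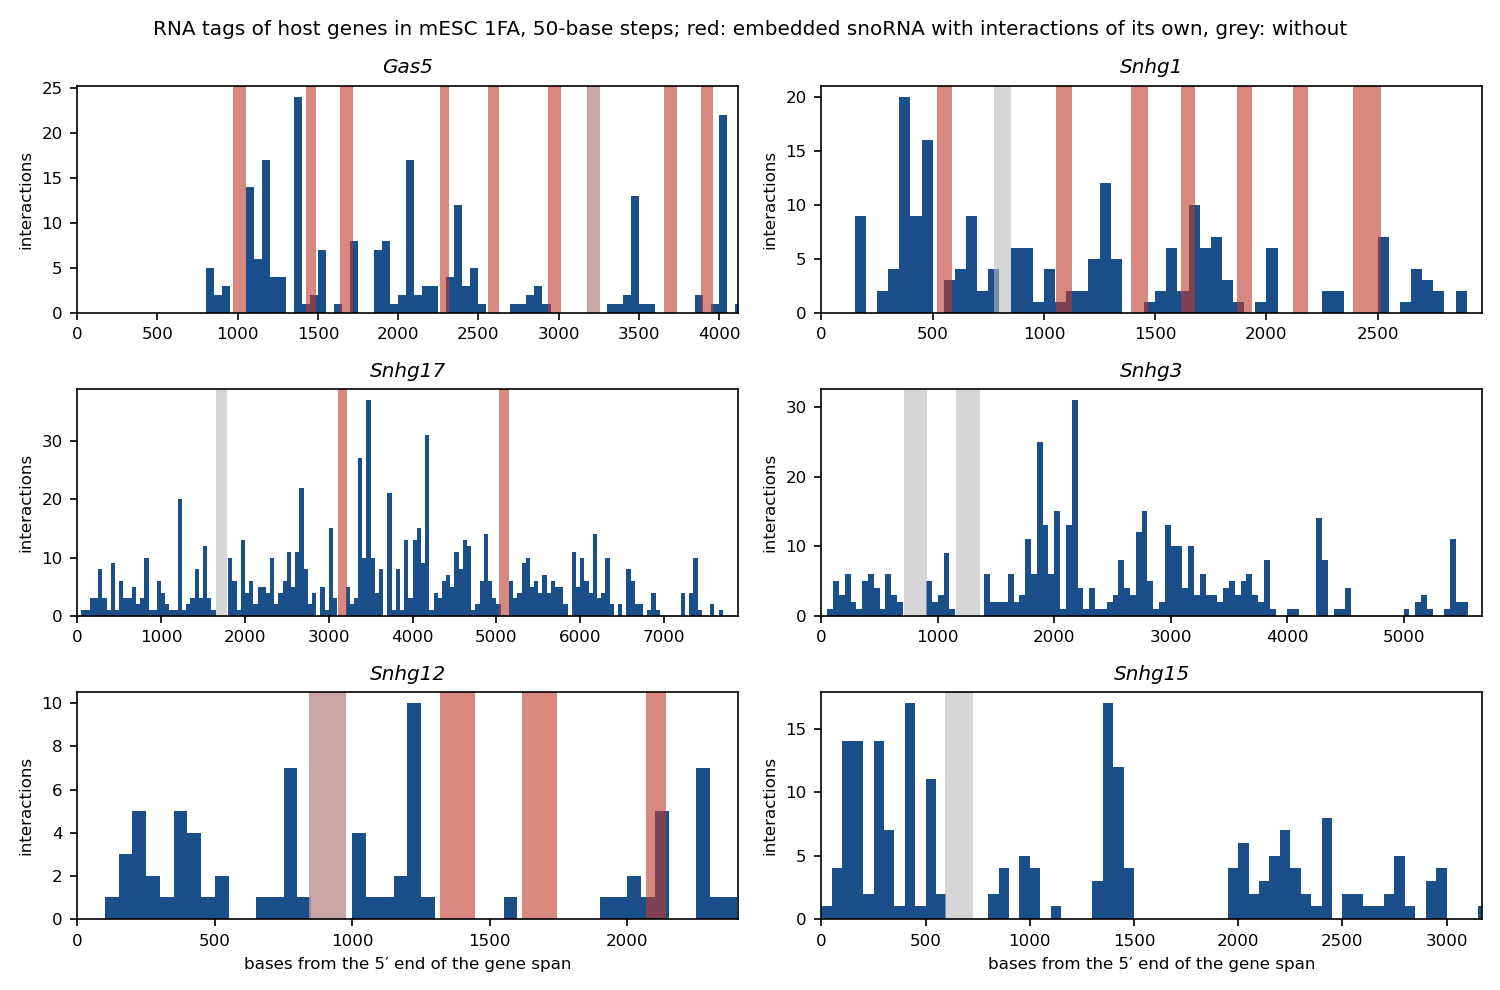
Number of interactions (vertical axis) by position of the RNA tag centre along 6 host genes (horizontal axis, bases from the 5′ end of the gene span, 50-base steps), 3 mESC 1FA libraries pooled. Red bands are embedded snoRNAs with interactions of their own and grey bands those without. Where a step overlaps a band, the host tag centres lie outside it, since tags inside an embedded snoRNA are listed under the snoRNA.

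In mESC 1FA the host RNAs contacted their own gene and its neighbourhood. The own-gene share, the part of interactions whose DNA tag lay in the host gene itself, was 26.4%, 28.97% and 33.4%, close to the 29.8% to 32.02% of all transcripts and below the 39.2% to 41.5% of the protein-coding hosts. The single members ranged from 17.4% of 23 interactions (Snhg20) to 37.4% of 219 (Gas5). The median cis distance between the tags was 11059 bases, 18.9% of the 2013 cis interactions fell within 1 kb, and 20.6% (415) lay beyond 100 kb. Of those 415, Snhg17 gave 299.

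Snhg17, which had the most interactions, had the widest listed reach. Its RNA was listed on 35 bins of 25 kb in mESC 1FA, with a median cis distance of 35421 bases and a longest one of 903004 bases, and 12 bins in mOPC 1FA. Outside its own gene the DNA genes most often contacted in mESC 1FA were Rprd1b, a regulator of RNA polymerase II (17, 18 and 18 interactions at a median distance of 276311 bases), D630003M21Rik (14, 23 and 14, at 150516 bases), Lbp, which encodes a lipopolysaccharide-binding protein (16, 18 and 15, at 37627 bases), Ralgapb (9, 11 and 15) and Ctnnbl1 (8, 8 and 11, at 571193 bases). The first 4 of these were also the 4 most contacted genes in mOPC 1FA, where D630003M21Rik came first (11, 10 and 12 interactions) and Rprd1b next (6, 12 and 11). All 83 mOPC 1FA host contacts beyond 100 kb were those of Snhg17. The same neighbours thus headed the list in both cell types, as a description of counts with no test. Only pairs under the threshold are listed, so a gene or group with fewer interactions can be listed on fewer and nearer bins. Reach was not compared apart from counts.

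The other members, with fewer interactions, were listed closer. Snhg3 was listed on 15 bins, up to 347677 bases away, and reached Phactr4 (14, 14 and 30 interactions), Rcc1 (13, 27 and 17) and Trnau1ap (6, 11 and 12), all on chromosome 4 nearby. Rcc1 overlaps Snhg3 on the same strand, so contacts with it lie at the same locus. Most Snhg3 tags are the intronic ones that cannot be assigned to it with certainty. Snhg12 lies in the same neighbourhood, and its main partner was Trnau1ap (8, 7 and 6 interactions at a median of 4453 bases), a factor of selenocysteine tRNA. Snhg3 RNA was found on the Snhg12 gene in 6 interactions of mESC 1FA, and Snhg12 RNA on the Snhg3 gene in 1, so contacts between these neighbouring members were rare. Gas5 was listed on 9 bins and reached Zbtb37 (4, 4 and 10 interactions). Snhg1 was listed on 8 bins and reached Slc3a2, an amino acid transporter subunit gene (5, 11 and 4 interactions, median 11881 bases), and Nxf1, a messenger RNA export factor gene (4, 5 and 5). Snhg15 was listed on 8 bins and reached Myo1g (10, 6 and 6). Snhg5, Snhg6, Snhg8 and Snhg20 had 1 or 2 bins each, next to the gene.

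Trans contacts were almost absent. Of the 5427 host interactions 9 joined different chromosomes, all of them Snhg1 in mESC 1FA (1, 6 and 2 in the 3 libraries), with a deposited adjusted p of 0.000453 for the pair. All 9 fell in 1 bin, chr17:39825001-39850000 (mm10), which holds CT010467.1, a gene annotated as ribosomal RNA. This is 0.180%, 0.892% and 0.252% of the host interactions per library, against 0.267% to 0.573% trans for the protein-coding hosts and 5.44% to 6.73% for all transcripts. The trans share of Snhg1 was 4.55% ± 3.95 in mESC 1FA and 0% in mESC 2FA (exact permutation p = 0.1, two-sided, n = 3 and 3, and 0.5 adjusted over the 5 members tested).

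**Figure D3:**
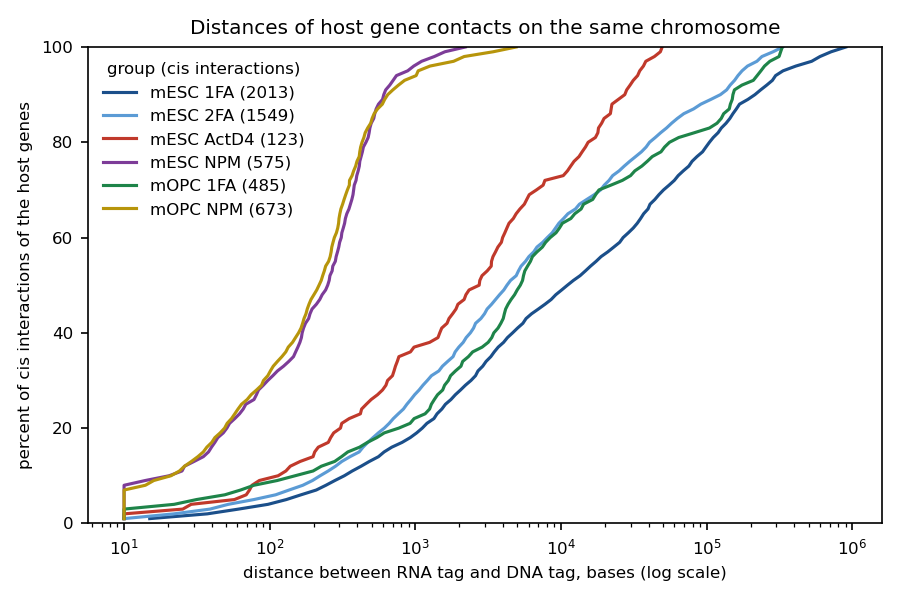
Cumulative percent of cis interactions of the 10 host genes (vertical axis) by distance between RNA tag and DNA tag (horizontal axis, bases, log scale), libraries of a group pooled, with the number of interactions in brackets. The medians were 11059 bases in mESC 1FA, 4253 in mESC 2FA, 2741 in mESC ActD4, 5253 in mOPC 1FA, 218 in mOPC NPM and 250 in mESC NPM.

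The embedded RNAs contacted other DNA than their hosts. In mESC 1FA 91.0% of 2204 interactions of the embedded snoRNAs lay in the ribosomal RNA gene bin on chromosome 17, and 2.45% on the host gene, while for the host RNAs these shares were 0.445% and 30.0%. The methods describe removal of blacklisted regions from significant interactions, and whether the deposited files precede that step is not settled, although this bin is present in them. The libraries ranged from 89.0% to 91.8% for the embedded RNAs and from 0.180% to 0.892% for the hosts, with no overlap. For the other annotated snoRNAs the bin took 54.5% to 70.4%, and for all transcripts 0.284% to 0.539%. Within that bin, 31.4% of the embedded snoRNA contacts lay inside the annotated ribosomal RNA gene itself. The share in the bin was 94.5% for the snoRNAs of Gas5, 94.1% for Snord87 of Snhg6, 90.8% for those of Snhg12, 90.7% for those of Snhg1, 83.1% for those of Snhg17 and 82.5% for Snora24 of Snhg8. Gm26083, the scaRNA of Snhg20, had 4, 1 and 2 interactions there and no others. The most frequent embedded RNAs were Gm24411 in Snhg17 (68, 90 and 59 interactions) and Snora44 in Snhg12 (54, 87 and 69). The embedded genes of Snhg3 (Snora73a and Snora73b), Snhg5 (Snord50a and Snord50b) and Snhg15 (Snora9) stood at 0 in all 15 libraries, so these 3 hosts gave host signal alone.

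**Figure D4:**
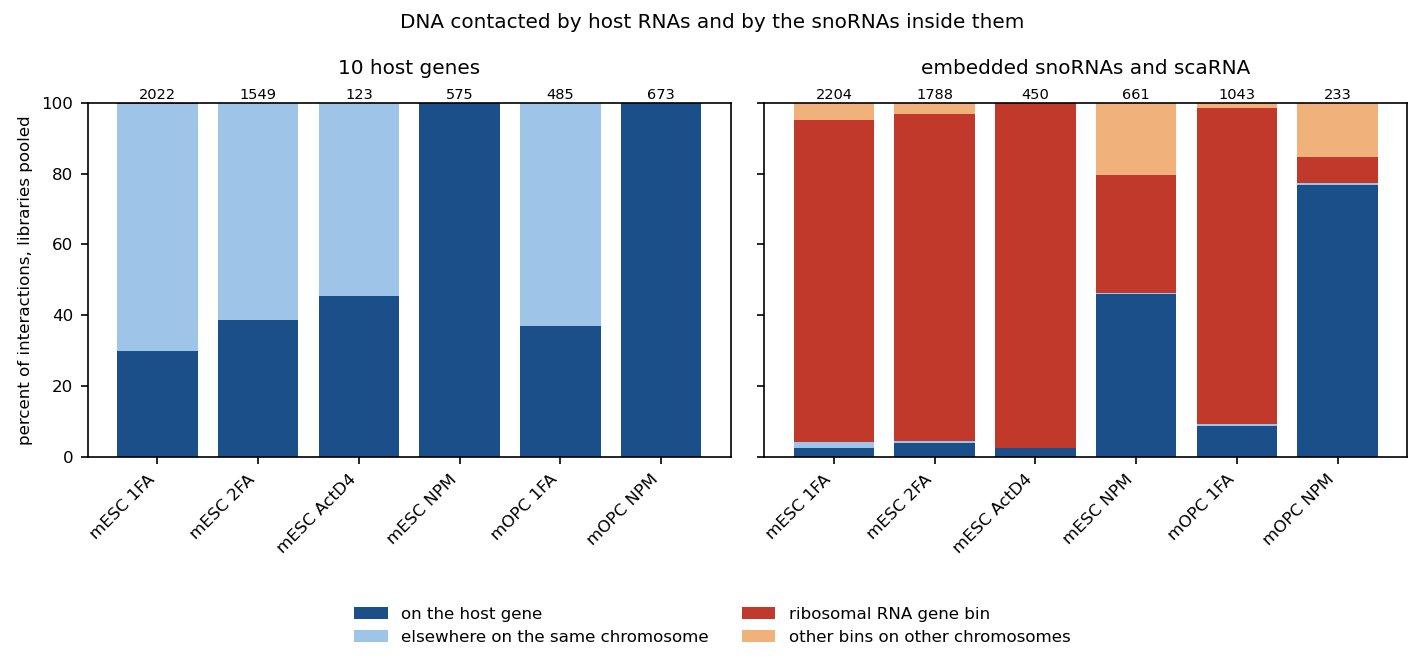
Percent of interactions (vertical axis, libraries of a group pooled) by class of DNA contacted, for the 10 host genes and for the embedded snoRNAs and scaRNA, with the number of interactions above each bar. The ribosomal RNA gene bin takes 89.3% to 97.3% of the embedded RNA contacts in the 4 groups without protein digestion, 33.4% in mESC NPM and 7.30% in mOPC NPM, and the host gene takes 99.8% and 99.9% of the host RNA contacts in the NPM groups.

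After actinomycin D the members split. Gas5, Snhg5, Snhg6 and Snhg8 were listed at 0 in both libraries, Snhg17, Snhg1 and Snhg3 were lower, Snhg15 was not called, and Snhg20 and Snhg12 were higher relative to the other transcripts. Of the 8 members that passed the filter on low counts, 5 were lower and 2 higher (limma, adjusted p under 0.05), where 40.3% and 21.7% of the 10235 transcripts tested were called lower and higher. The median log2 fold change was −1.12 over the members tested, with Gas5 and Snhg6 at their fitted values, and −0.28 over all transcripts. Gas5 and Snhg6 passed the filter through mESC 1FA alone and Snhg20 through mESC ActD4 alone, the group where each is high, so these counts are no support for a direction. Gas5 fell from 59 to 98 interactions to 0 and 0 (adjusted p = 1.8e-06), where the mESC 1FA rate would have given 11.5 and 6.94. Snhg6 fell from 8 to 17 interactions to 0 and 0 (adjusted p = 1.1e-05), against 1.90 and 1.14 at that rate. Snhg5 and Snhg8 did not pass the filter. The mESC 1FA rate would have given 3.04 interactions of Snhg6, 1.77 of Snhg5 and 0.760 of Snhg8 over both libraries, so the 0 of these 3 genes carries little information, the call of Snhg6 included.

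Snhg17 had 93.0, 107.3 and 107.3 CPM in mESC 1FA and 40.6 and 35.7 after actinomycin D (log2 fold change −1.60 ± 0.15, SE, adjusted p = 8.0e-05). The groups did not overlap, nor did they for 7725 of the 10235 transcripts tested. Snhg17 was listed on 1 bin in place of 35, on 26 interactions in place of 814, and 88.5% of the 26 lay on its own gene. With fewer interactions fewer bins can pass the listing threshold, and a change of reach apart from counts was not tested. Snhg1 went from 19.5, 27.03 and 26.8 CPM to 14.3 and 7.94 (−1.34 ± 0.33, adjusted p = 0.011), on 6 and 2 interactions. Snhg3 went from 33.7, 66.8 and 62.1 to 31.0 and 31.8 (−0.90 ± 0.31, adjusted p = 0.037), and its lowest untreated library lay only just above the treated ones. Snhg15 was not called, at 23.2, 27.4 and 26.5 before and 23.9 and 39.7 after (0.08 ± 0.28, adjusted p = 0.82).

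Snhg12 rose the most among the members. It had 15, 28 and 30 interactions in mESC 1FA and 25 and 15 in the far smaller mESC ActD4 libraries, or 5.62, 11.5 and 10.6 CPM against 59.7 and 59.6 (log2 fold change 2.54 ± 0.35, SE, adjusted p = 6.1e-04). It was then the highest member per kb, at 24.8 ± 0.0372 CPM per kb (SD, n = 2). Trnau1ap was still its main partner (5 and 6 interactions), and its exon share was 55.0% of 40 interactions. Snhg20 rose from 3.00, 4.51 and 1.41 CPM to 11.9 and 11.9 (1.85 ± 0.45, adjusted p = 0.0092), on 5 and 3 interactions, and was not called over the pairs listed in both groups (0.74, adjusted p = 0.34). Neither gene overlapped between the groups, nor did 7725 of the 10235 transcripts tested. Summed over the members, 181 and 187 CPM were listed, below the 208 to 280 of mESC 1FA. No host contact beyond 100 kb was listed among 123 cis interactions, against 415 of 2013 in mESC 1FA. Fewer interactions can leave fewer distant pairs listed. The own-gene share was 48.7% and 40.4%, against 54.5% to 55.7% for all transcripts.

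These counts moved with the libraries and with the list of pairs. Without mESC 1FA replicate 2 or without replicate 3, 4 members of 7 tested were called, and Snhg1 and Snhg3 no longer passed (adjusted p = 0.070 and 0.16 without replicate 2, 0.073 and 0.16 without replicate 3). Snhg3 was also not called when scaled by the total (adjusted p = 0.082) or with voom weights (adjusted p = 0.085). Over the pairs listed in both groups 2 members were called of 6 tested. Without own-gene contacts 3 were higher and 2 lower of 7, with a median of −0.16. Snhg1 (−0.16, adjusted p = 0.67) and Snhg3 (−0.23, adjusted p = 0.61) then lost their calls, and Snhg15 was called higher (1.32, adjusted p = 0.0032). Of all transcripts 1562 were higher and 3457 lower of 8281 in that setting (median −0.84).

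Most embedded RNAs were higher after actinomycin D relative to the other listed transcripts. Their interactions numbered 746, 885 and 573 in mESC 1FA and 273 and 177 in the smaller mESC ActD4 libraries. Of 22 tested, 14 were higher and 2 lower, against 21.7% and 40.3% of all transcripts, with a median log2 fold change of 1.33. Over the pairs listed in both groups 1 was higher and 1 lower of 20 (median 0.32), and without mESC 1FA replicate 3, 8 were higher and 0 lower of 20. Without the filter 14 were higher and 5 lower of 25 (median 1.25). Snord22 in Snhg1 went from 30, 25 and 15 interactions to 24 and 14 (2.51 ± 0.36, adjusted p = 7.8e-04), Snord80 in Gas5 from 46, 48 and 41 to 20 and 13 (1.35 ± 0.23, adjusted p = 0.0020), and Snora24 in Snhg8 from 42, 48 and 24 to 18 and 15 (1.67 ± 0.38, adjusted p = 0.0075). Gm25855 and Gm22744 of Snhg1 were the lower ones, both listed at 0 after treatment. They passed the filter through mESC 1FA alone, and Gm23212 of Gas5, called higher, passed through mESC ActD4 alone. Each is high in that group, so these calls are no support for a direction. Snora44 and Snord99 of Snhg12, the host that rose, had log2 fold changes of 0.59 and −0.25 and were not called (adjusted p = 0.10 and 0.57), while its Snora61 and Snora16a were higher (1.45 ± 0.53 and 0.84 ± 0.27, adjusted p = 0.049 and 0.029). All 204 Gas5 snoRNA interactions after actinomycin D lay in the ribosomal RNA gene bin, as did 97.3% of all 450. Without that bin 1 embedded RNA passed the filter, so the other 21 calls and values rest on contacts there. For all transcripts the share in the bin was 0.284% to 0.539% in mESC 1FA and 0.763% to 0.873% in mESC ActD4.

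Put as a log2 ratio of embedded to host interactions, the sum over the 10 genes went from 0.12 ± 0.51 (n = 3) to 1.87 ± 0.05 (SD, n = 2). By host, the ratio was higher in 5 of the 7 genes with embedded signal and lower in the other two. The differences were 2.35 for Snhg1, 1.91 for Snhg17 and −2.06 for Snhg12. For Gas5, Snhg6 and Snhg8, whose hosts were listed at 0, and for Snhg20, whose scaRNA was listed at 0, the size depends on the pseudocount of 0.5. Of the 7 genes, 6 gave an exact permutation p of 0.2 (two-sided, n = 2 and 3), the smallest that this design allows, and 0.23 after adjustment, and Snhg20 gave 0.4. Without the ribosomal RNA gene bin the summed difference was 0.035 in place of 1.75.

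**Figure D5:**
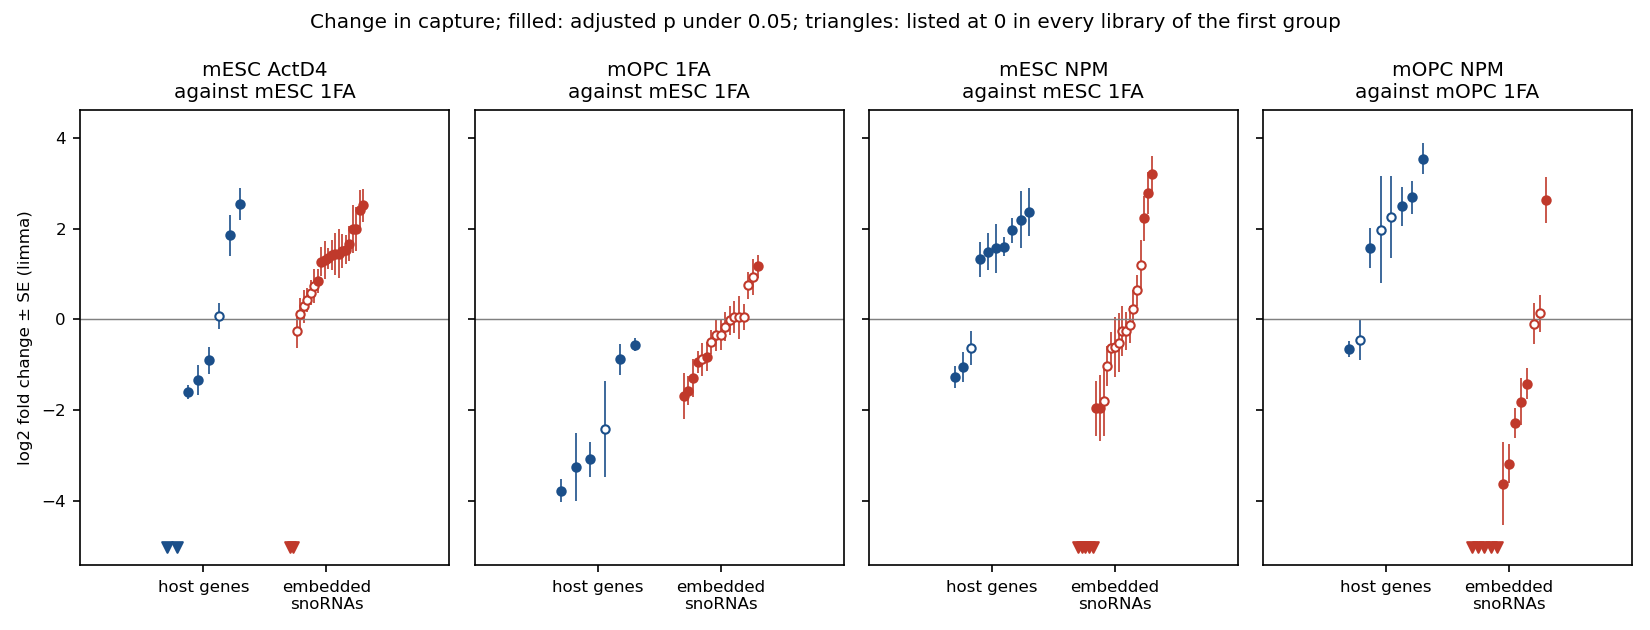
Log2 fold change with its SE (vertical axis, limma) of the host genes and of the embedded snoRNAs that were tested, in 4 comparisons. Filled points passed an adjusted p under 0.05, and triangles mark RNAs listed at 0 in every library of the first group, drawn at the lower edge with no fold. After actinomycin D the 22 embedded RNAs had a median of 1.33 and the 8 host genes one of −1.12, and in both NPM panels most host points lie above 0.

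Between the cell types, host RNA capture summed over the members was lower in mOPC. The summed members gave 65.6, 59.8 and 107.1 CPM in mOPC 1FA, less than the 208 to 280 of mESC 1FA. Of the 6 members tested 5 were lower and 0 higher, where 42.7% and 35.2% of 10007 transcripts were called lower and higher, and the median log2 fold change was −2.74 over the members and −0.20 over all transcripts. Snhg1, Snhg3, Snhg12 and Snhg15 passed the filter through mESC 1FA alone, where they are high, so these counts are no support for a direction. Without the filter 7 of 10 were lower, with a median of −1.77, as were 7141 of 15400 transcripts (median −0.50). A lower share of expressing cells and less RNA per cell cannot be told apart in these bulk libraries. The comparison uses the same mESC 1FA libraries as that with actinomycin D. Snhg1 went from 52, 66 and 76 interactions to 2, 2 and 3 (−3.76 ± 0.26, adjusted p = 3.2e-06), Snhg3 from 90, 163 and 176 to 6, 8 and 14 (−3.07 ± 0.39, adjusted p = 1.4e-04) and Snhg15 from 62, 67 and 75 to 3, 1 and 14 (−3.25 ± 0.74, adjusted p = 0.0042). The Snhg15 value was −4.17 without mOPC 1FA replicate 3 and −2.50 without replicate 2. The groups did not overlap for any of these 3 genes, nor for 8063 of the 10007 transcripts tested.

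Snhg17 and Gas5 differed less. Snhg17 had 42.5, 45.1 and 60.5 CPM in mOPC 1FA (−0.55 ± 0.14, adjusted p = 0.0073), a call that was lost without own-gene contacts (−0.31, adjusted p = 0.092) and over the pairs listed in both groups (−0.36, adjusted p = 0.051). It was the highest member per kb in this line too, at 6.26 ± 1.24 (SD, n = 3). Gas5 had 10.4, 6.17 and 16.5 CPM against 23.2, 24.2 and 34.6 (−0.87 ± 0.34, adjusted p = 0.046). The call of Gas5 was lost over the pairs listed in both groups (−0.49, adjusted p = 0.18), without any 1 of the mESC 1FA libraries, and without mOPC 1FA replicate 1 or 2. Snhg12 had 6, 0 and 7 interactions (−2.40 ± 1.06, adjusted p = 0.068), and was called lower when scaled by the total (−2.78, adjusted p = 0.032). Its size moved with single libraries, to −1.01 without mOPC 1FA replicate 2 (adjusted p = 0.043) and −3.22 without replicate 3 (adjusted p = 0.038). Snhg5 (2, 0 and 5 interactions), Snhg6 (2, 2 and 5) and Snhg20 (7, 5 and 12) did not pass the filter, and Snhg8 was listed at 0 in all 5 mOPC libraries. Snhg20 was not lower in CPM, with 3.17, 2.37 and 6.00 in mOPC 1FA against 3.00, 4.51 and 1.41 in mESC 1FA. Of the 17 embedded RNAs tested, 5 were lower and 1 higher (median −0.34), where 42.7% and 35.2% of all transcripts were called lower and higher (median −0.20). All 5 but Gm24411 passed the filter through mESC 1FA alone, so these counts are no support for a direction. Without mESC 1FA replicate 2, 2 of 17 were lower, and without replicate 3, 7 of 20. Snora24, the snoRNA of Snhg8, had 24, 15 and 26 interactions in mOPC 1FA against 42, 48 and 24 in mESC 1FA (0.05 ± 0.35, adjusted p = 0.90).

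The log2 ratio of embedded to host interactions was higher in mOPC 1FA for Snhg1, by 3.65 for Snhg1 (exact permutation p = 0.1, two-sided, n = 3 and 3, the smallest possible, and 0.23 adjusted). The difference was 0.90 for Snhg6, 0.86 for Snhg20, 0.66 for Gas5 and −0.37 for Snhg17 (exact p from 0.2 to 0.5). For Snhg8, whose host was listed at 0 in every mOPC library, and Snhg12, at 0 in 1, the size depends on the pseudocount. The own-gene share of the members was 46.2%, 27.8% and 36.0% in mOPC 1FA.

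Calls between 2% and 1% formaldehyde depended on the replicate block. Without it, none of the 9 members tested was called between mESC 2FA and mESC 1FA by limma, with or without voom weights, with 2 at an unadjusted p under 0.05, where 0.0203% and 0.0102% of the 9837 transcripts were called higher and lower. The members' median log2 fold change was −0.08. Snhg17 had 87.8, 84.0 and 67.2 CPM in mESC 2FA, below each of its mESC 1FA libraries (−0.42 ± 0.14, adjusted p = 0.31), and with the replicate number as a block it was called (adjusted p = 0.039) where 1.96% and 3.17% of transcripts were called higher and lower. Snhg6 had 7.58, 9.33 and 8.35 against 4.12, 3.28 and 6.00 (0.88 ± 0.33, adjusted p = 0.33). The differences were 0.95 for Snhg5, 0.49 for Snhg20, 0.09 for Snhg12, −0.08 for Gas5, −0.10 for Snhg3, −0.13 for Snhg15 and −0.38 for Snhg1 (adjusted p from 0.46 to 0.92), and Snhg8, with 12 interactions in mESC 2FA, was not tested. The own-gene share was 30.5%, 43.5% and 42.7%, the contacts beyond 100 kb were 11.2% of 1549, and Snhg17 was listed on 17 bins. The own-gene share of Snhg17 was 32.8% ± 3.66 against 25.1% ± 3.15 (exact permutation p = 0.1, n = 3 and 3, and 0.5 adjusted). Within the pairs of replicates 1, 2 and 3 it was higher in mESC 2FA by 6.86, 8.12 and 8.07 percentage points.

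Protein digestion before ligation left host RNA on its own gene. The own-gene share was 99.5% and 100% in mESC NPM and 99.7% and 100% in mOPC NPM, against 94.6% to 95.8% and 93.0% to 95.5% for all transcripts, and the median cis distance was 250 and 218 bases. Every member with interactions had 100% of them on its own gene, except Snhg17 with 76 of 77 in mESC NPM and 133 of 134 in mOPC NPM. The own-gene share of Snhg17 rose by 72.6 percentage points in mESC and 71.7 in mOPC, a mean of 72.2 (exact permutation p = 0.02, two-sided, the smallest these 10 libraries allow). For all transcripts the own-gene share was higher in NPM as well, since the 1FA libraries lay between 29.8% and 32.02% in mESC and between 32.2% and 35.7% in mOPC, so a rise of this kind is not particular to the members.

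In mESC NPM 7 of the 10 members were higher and 2 lower than in mESC 1FA, where 24.8% and 28.4% of 11410 transcripts were called higher and lower. Snhg5, Snhg8 and Snhg20 passed the filter through mESC NPM alone, where they are high, so these counts are no support for a direction. Scaled by the total, 7 members were higher and 1 lower, as were 5564 and 1276 of all transcripts, and over the pairs listed in both groups 3 of 8 were called. The median log2 fold change was 1.53 over the members and 0.03 over all transcripts. Gas5 went from 23.2, 24.2 and 34.6 CPM to 126.6 and 221.7 (1.96 ± 0.28, SE, adjusted p = 3.4e-04) and Snhg1 from 19.5, 27.03 and 26.8 to 115.0 and 119.9 (1.60 ± 0.21, adjusted p = 2.2e-04). Snhg20, Snhg8, Snhg5, Snhg6 and Snhg12 were higher by 2.36, 2.20, 1.57, 1.49 and 1.32 (adjusted p from 0.0038 to 0.032), on 3 to 26 interactions per library. Without mESC NPM replicate 2, Snhg5 and Snhg12 were not called (adjusted p = 0.19 and 0.098), nor was Snhg5 without mESC 1FA replicate 2 (adjusted p = 0.078). Snhg17 and Snhg3, the 2 most captured genes of mESC 1FA, were lower, with 50.6 and 90.3 CPM for Snhg17 (−1.26 ± 0.25, adjusted p = 0.0019) and 29.9 and 52.5 for Snhg3 (−1.05 ± 0.33, adjusted p = 0.022). The Snhg3 libraries overlapped in CPM, and not after TMM scaling. Its call was lost when scaled by the total (−0.39, adjusted p = 0.33), over the pairs listed in both groups (−0.55, adjusted p = 0.22), without mESC 1FA replicate 2 or 3 (adjusted p = 0.091 and 0.092) and without mESC NPM replicate 1 (−0.58, adjusted p = 0.21). Snhg15 had 16.1 and 42.7 (−0.63 ± 0.38, adjusted p = 0.19), and was called lower without mESC NPM replicate 2 (−1.36, adjusted p = 0.0052).

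In mOPC NPM 4 of the 8 members tested were higher and 1 lower than in mOPC 1FA, where 31.8% and 24.1% of 11586 transcripts were called higher and lower. Scaled by the total, 5 members were higher and 0 lower, as were 7272 and 750 of all transcripts, a share of the members close to that background. Snhg1, Snhg6, Snhg12, Snhg15 and Snhg20 passed the filter through mOPC NPM alone, where they are high, so the counts are no support for a direction. The median was 2.11 over the members and 0.32 over all transcripts. Gas5 rose from 10.4, 6.17 and 16.5 CPM to 118.6 and 116.8 (2.69 ± 0.37, adjusted p = 0.0013), Snhg1 from 2, 2 and 3 interactions to 29 and 37 (3.54 ± 0.34, adjusted p = 2.5e-04), Snhg6 from 2, 2 and 5 to 22 and 15 (2.49 ± 0.44, adjusted p = 0.0039) and Snhg20 from 7, 5 and 12 to 23 and 25 (1.57 ± 0.43, adjusted p = 0.022). Their groups did not overlap, nor did those of 8680 of the 11586 transcripts tested. Snhg17 was lower (−0.65 ± 0.18, adjusted p = 0.022) with 52.6 and 56.3 CPM against 42.5 to 60.5, and scaled by the total it was at 0.16 and not called (adjusted p = 0.48). Snhg15 (2.25 ± 0.90, adjusted p = 0.074, and 2.28, adjusted p = 0.049, with voom weights), Snhg12 (1.97 ± 1.18, adjusted p = 0.19) and Snhg3 (−0.45 ± 0.44, adjusted p = 0.41) did not pass the threshold. Snhg15 was also called when scaled by the total (3.00, adjusted p = 0.023) and over the pairs listed in both groups (2.05, adjusted p = 0.043). With 1 library left out its value ran from 1.53 to 3.13, the latter without mOPC 1FA replicate 3 (adjusted p = 0.0022). Snhg5 was not tested, with 15 and 4 interactions. Without mOPC NPM replicate 1, or without replicate 2, only 1 member was called. Gas5 then had an adjusted p of 0.054 and 0.051.

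The gains of the members lay on their own genes. Since 99.5% to 100% of NPM host contacts are on the own gene, leaving these out sets the NPM counts of the members near 0. Then 5 of 6 members tested were lower in mESC NPM, as were 5390 of 7977 transcripts (median −4.62), and in mOPC NPM Snhg17 alone could be tested and was not called (adjusted p = 0.17). In mESC the mean log2 ratio of embedded to host interactions was lower in NPM than in 1FA by between −4.18 (Snhg8) and −0.58 (Snhg17) in the 6 genes with interactions of both kinds (exact permutation p from 0.2 to 0.8, two-sided, n = 2 and 3). In mESC NPM replicate 1 Gas5 (2.02), Snhg1 (1.17) and Snhg12 (2.52) lay within the mESC 1FA range and Snhg17 (−0.28) above it. Snhg6 and Snhg8 lay below it. The ratio summed over the 10 genes was not lower, at 0.18 in mESC NPM (1.24 and −0.88 in the libraries) against 0.12 in mESC 1FA. In mOPC the differences were −6.06 for Snhg6, −4.82 for Snhg1, −4.36 for Snhg12 and −3.62 for Gas5 (exact permutation p = 0.2 each, the smallest possible with n = 2 and 3). Snhg6 in 1 library there had 0 embedded interactions, and Snhg12 in 1 library of mOPC 1FA had 0 host interactions, so these sizes depend on the pseudocount. No ratio is given for Snhg20 in either cell type or for Snhg8 and Snhg17 in mOPC NPM, where the embedded RNAs were listed at 0. The embedded RNAs themselves shifted to the host gene, which took 46.1% of their 661 interactions in mESC NPM and 76.8% of their 233 in mOPC NPM. For the other annotated snoRNAs the ribosomal RNA gene bin took 29.8% to 37.2% in mESC NPM, against 54.5% to 70.4% in mESC 1FA. It took 1.82% to 4.33% in mOPC NPM, against 68.9% to 84.9% in mOPC 1FA. A fall in that bin was thus not particular to the embedded RNAs. Snord22 (73 and 33 interactions in mESC NPM, 2.78 ± 0.46, adjusted p = 7.3e-04), Gm22357 (73 and 65, 3.19 ± 0.41, adjusted p = 1.8e-04) and Snord80 (124 and 35, 2.23 ± 0.49, adjusted p = 0.0039) were the 3 higher of 21 tested there, and 7 were lower, against 24.8% and 28.4% of all transcripts. All 7 passed the filter through mESC 1FA alone, where they are high, so their count is no support for a direction. Without mESC NPM replicate 2, 6 of 22 were higher. Without mESC NPM replicate 1 and without replicate 2, Snord80 stood at 1.15 and 3.34 and Snord22 at 2.04 and 3.56. Without mESC 1FA replicate 1 or 2, 1 was lower, without mESC NPM replicate 1, 12 were, and scaled by the total 5 were higher and 5 lower. In mOPC NPM 10 of 13 were lower, against 24.1% of all transcripts, and Gm22357 alone was higher, against 31.8% (35 and 21 interactions, 2.62 ± 0.51, adjusted p = 0.0057). Of these 10, all but Snord99 passed the filter through mOPC 1FA alone, and Gm22357 passed through mOPC NPM alone. Each is high in that group, so these counts are no support for a direction.

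Other noncoding snoRNA hosts were counted for comparison. Of 11 such genes 9 were matched to the annotation, and 3 to 5 passed the filter in each comparison. After actinomycin D Snhg11 and 1810032O08Rik (Snhg16) were higher (2.56 ± 0.33 and 0.78 ± 0.21, adjusted p = 4.5e-04 and 0.016), while Zfas1 (−0.21 ± 0.37) and Dancr (−0.13 ± 0.27) were not called. Snhg11 had 4, 6 and 8 interactions before and 7 and 4 after, and passed the filter through mESC ActD4 alone. Its call is thus no support for a direction. The 1810032O08Rik value ran from 0.48 to 1.06 with 1 library left out. In mOPC 1FA Zfas1 was lower (−3.73 ± 0.68, adjusted p = 0.0013, and −4.53 without mOPC 1FA replicate 3) and Dancr higher (0.94 ± 0.21, adjusted p = 0.0037). Without the ribosomal RNA gene bin Dancr stood at −0.71 and was not called (adjusted p = 0.25). In mESC NPM Snhg11 and Snhg14 were higher (3.77 ± 0.42 and 1.82 ± 0.47) and Dancr and 1810032O08Rik lower (−2.30 ± 0.39 and −1.38 ± 0.39), the latter at −0.54 and not called without mESC NPM replicate 1 and at −2.19 without replicate 2. In mOPC NPM Zfas1 was higher (2.18 ± 0.75, adjusted p = 0.047, and 2.93 without mOPC 1FA replicate 3) and Dancr and 1810032O08Rik lower (−3.31 ± 0.29 and −1.26 ± 0.22). Snhg11 and Snhg14 in mESC NPM and Zfas1 in mOPC NPM passed the filter through the NPM group alone. In mOPC 1FA Zfas1 passed through mESC 1FA alone. Each is high in that group, so these calls are no support for a direction. None of 3 was called between 2FA and 1FA.

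Of the 259 protein-coding hosts, 199 were tested after actinomycin D, and 36 rose and 87 fell, against 21.7% and 40.3% of all transcripts. Their median log2 fold change was −0.32, near the −0.28 of all transcripts. Eif4a1, a translation initiation helicase, was higher (1.68 ± 0.33, adjusted p = 0.0035), as were Prrc2a and Pole, a DNA polymerase subunit (1.45 ± 0.17 and 0.99 ± 0.15). Cryl1 was listed at 0 after treatment against a mean of 167.3 interactions, and Nbea and Samd12 were lower (−4.34 ± 0.21 and −2.97 ± 0.24). In mESC NPM 44 of 206 were higher, against 24.8% of all transcripts, led by the initiation factor genes Eif3a, Eif4g1 and Eif4g2 (2.55 ± 0.23, 1.72 ± 0.20 and 1.37 ± 0.16), and 68 lower, against 28.4%, led by Rpl12, Rptor and Gpr107 (−2.15 ± 0.19, −1.78 ± 0.19 and −1.71 ± 0.16). In mOPC NPM 59 of 211 were higher and 58 lower, against 31.8% and 24.1% of all transcripts, with Prrc2a, Eif4g1 and Eif3a higher (1.89 ± 0.12, 1.32 ± 0.16 and 0.96 ± 0.18) and Gpr107, Rptor and Ralgps1 lower (−1.98 ± 0.15, −1.88 ± 0.17 and −1.62 ± 0.15). Between the cell types 38 of 202 were higher and 125 lower in mOPC 1FA, against 35.2% and 42.7% of all transcripts, with Mdga2, Negr1 and Lrrc4c, neuronal adhesion genes, higher (means of 2670, 3561 and 1199 interactions against 2.33, 4.67 and 2.33), Slit3 listed at 0, and Etl4 and Cep55 lower (means of 2.67 and 9 against 7698 and 311.7). Of 203 tested, 0 were called between 2FA and 1FA, with 29 at an unadjusted p under 0.05.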

How the data were processed

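Per the labels and the study's methods, the authors removed ribosomal RNA reads and duplicates, aligned RNA and DNA tags to mm10, kept a mapping quality of 37, gave each RNA tag a gene of GENCODE M14 on its strand, and tested each pair of a transcript and a 25-kb bin. The submitters' processing notes name BWA 0.7.15-r1140 and CASAVA 1.8. Each line of the deposited files holds 1 interaction, which can take more than 1 line, and the deposited p-value and adjusted p-value of its pair, called on pooled replicates. The spread between libraries can thus be understated, which was not measured. The methods define biological replicates as cell batches of differing passage, so p-values measure the spread between passages of 1 line.

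Here lines that shared the RNA tag position and strand, gene, region, DNA tag position and bin were merged to 1 interaction. Interactions were then counted per transcript and library, with symbols and positions from GENCODE M21. Counts were filtered (a CPM equal to 10 counts in a library of median size in as many libraries as the smaller group holds, and 15 in total), scaled by TMM, converted to log2 CPM with a prior count of 0.5 and fitted with limma 3.58.1 under R 4.3.3 over all transcripts, with Benjamini-Hochberg adjustment and a threshold of 0.05. Tested on simulated data, 71.5% (mESC ActD4 against mESC 1FA, 9883 transcripts) of 200 transcripts with a known change were recovered, and 86.5% to 100% in the other comparisons. Of the simulated calls, 1.48% to 6.25% were false. Except between mESC 2FA and mESC 1FA, far fewer transcripts changed in the simulation than were called in the data. The simulation thus cannot show how the scaling acts where many transcripts change. Shares, for genes with at least 20 interactions in each library, and log2 ratios (pseudocount of 0.5), with no such minimum, were compared by exact permutation, two-sided. Replicate numbers paired mESC 2FA with mESC 1FA, where same-numbered libraries deviated together (correlations from 0.186 to 0.355), and no other groups.

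All 10 members are named in every comparison, with up to 4 other noncoding hosts and the 3 largest rises and falls among called, non-overlapping protein-coding hosts with a mean of at least 100 interactions. Embedded RNAs were named after their values were seen. Members and lists were chosen with earlier results of these data known. The contacts of Gas5 with 1 further gene are not reported here.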

Additional observations from a re-analysis of the deposited data

Results flagged for a closer look

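The CPM of Snhg17 differed in opposite directions in the cell types between NPM and 1FA. In CPM, interactions scaled to 1000000 listed in the library, both mESC NPM libraries lay below the mESC 1FA mean (log2 difference of the means −0.58), while both mOPC NPM libraries lay above the mOPC 1FA mean (0.16) and within its range of 42.5 to 60.5. After TMM scaling Snhg17 was lower in both (−1.26 and −0.65). The embedded snoRNAs, summed, moved the other way, by 1.13 in mESC and by −0.80 in mOPC, again with both NPM libraries of each line on 1 side of the 1FA mean. The mESC value rests on 1 library, since the NPM libraries stood at 1040 and 343 CPM and the 1FA libraries at 280, 362 and 202. In neither case was the difference between the cell types tested. Groups of 2 or 3 libraries are too small to test a single outlying library.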

How the results depend on the processing

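The number of members called was 7 after actinomycin D, 5 in mOPC 1FA, 0 in mESC 2FA, 5 in mOPC NPM and 9 in mESC NPM. Leaving out 1 library at a time gave 4 to 8, 4 to 7, 0 to 0, 1 to 6 and 6 to 9. It gave 4 after actinomycin D without mESC 1FA replicate 2 or 3, and 1 in mOPC NPM without mOPC NPM replicate 1 or 2. With the replicate number as a block, over shared numbers, 4 were called after actinomycin D and 1 (Snhg17) in mESC 2FA, where the numbers pair the libraries. The mESC ActD4 block leaves out mESC 1FA replicate 3. Over the pairs listed in both groups the calls were 2 after actinomycin D and 3 in mESC NPM. Without own-gene contacts they were 0 in mOPC NPM and 5 in mESC NPM. The causes were not tested. Scaling by the total moved the median of all transcripts to −0.10, −0.70, 0.04, 1.12 and 0.70, and Snhg17 in mOPC NPM then stood at 0.16 and 1810032O08Rik in mOPC 1FA at −0.47.

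Without own-gene contacts, log2 fold changes changed sign in mESC NPM for Gas5 (−5.78), Snhg1 (−5.73), Snhg12 (−4.26), Zfas1 (−6.03), Snord87 (2.71) and Snord99 (1.70), and in mOPC NPM for Eif3a (−6.58), Eif4g1 (−2.58), Gm23246 (1.14), Snord80 (5.24) and Snord99 (0.86). Host genes listed at 0 there have values that depend on the prior count. Over the pairs listed in both groups they changed sign for Samd12 after actinomycin D (0.086), Gm22357 (−0.12), Snora44 (−0.95) and Snord99 (3.74) in mESC NPM, and 1810032O08Rik in mOPC NPM (0.71). Without the ribosomal RNA gene bin, an alternative chosen after seeing the data, the sign changed for Dancr in mOPC 1FA (−0.71), Snord87 (2.72) and Snord99 (3.43) in mESC NPM, and Snord80 (1.91) and Snord99 (1.40) in mOPC NPM, and the ratio of embedded to host interactions rose by 0.035 after actinomycin D in place of 1.75 (1.46 to 1.91 without 1 library).

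The exon share in mESC 1FA was 69.3% (68.0% to 70.1% without 1 library) and 63.9% with each pair counted once per region. The trans share was 0.441% (0.216% to 0.572%), 1.22% with each pair counted once and 0% without the bin on chromosome 17. The own-gene share rose by 70.1 percentage points in mESC NPM (68.5 to 72.0 without 1 library) and by 77.7 points for DNA tags within 1 kb. Listed interactions of a member ran down to 0 per library, so small members could not be compared firmly.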

Other observations

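Outside the ribosomal RNA gene bin, 107 trans interactions of the embedded snoRNAs were listed in mESC 1FA and 134 in mESC NPM. The bin chr11:109000001-109025000 (mm10), which holds Gm11668, came first for Snord80 (16 in mESC 1FA, 15 in mESC NPM), Snord47 (11) and Snora24 (10).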
